A study of Rattus norvegicus with 6 samples.

Results

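The let-7 passenger strands are the 3p arms of the let-7 hairpins, and 10 rows of the deposited table, of 764 rat miRNA entries, carry their names. They were taken by name: rno-let-7a-1-3p, rno-let-7b-3p, rno-let-7c-1-3p, rno-let-7c-2-3p, rno-let-7d-3p, rno-let-7e-3p, rno-let-7f-1-3p, rno-let-7f-2-3p, rno-let-7g-3p and rno-let-7i-3p, written below without the species prefix. All 10 had a value above 0 in every library, so none was lost to a filter. Small RNA was sequenced from the testicle of male Sprague Dawley rats. The 3 HO-1 knockout libraries came from rats labelled as lacking heme oxygenase 1, the stress-inducible enzyme that degrades heme, and the 3 wild type libraries from rats with it. Both groups had the same injury, a testicular torsion of 720° for 2 h with tissue taken after 3 days, so genotype is the only contrast and no uninjured library was analysed here. The age of the rats, the extent of the deletion and whether each library came from a separate animal are not stated in the labels, and any p-value below refers to library-to-library spread, which may be technical.

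A let-7 hairpin is cut by Dicer into a duplex of a 5p and a 3p arm. The 5p arm, the guide, is retained in Argonaute and represses growth-promoting messenger RNAs in differentiated tissues, while the 3p arm, the passenger, is mostly discarded and degraded. Some guide sequences, those of let-7a, let-7c and let-7f, are shared between hairpins, while passenger sequences usually are not. For these guides, a passenger strand of unique sequence can show which hairpin its own reads came from, not the origin of the guide reads.

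RefSeq (build GRCr8) gave a mature sequence for 9 of the 10 strands. The tenth was let-7c-1-3p. The sequences are shown because they decide which hairpins can be told apart, with the seed, bases 2 to 8 from the 5′ end, in capitals.
let-7a-1-3p: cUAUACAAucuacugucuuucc
let-7c-2-3p: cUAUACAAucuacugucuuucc
let-7f-1-3p: cUAUACAAucuauugccuucc
let-7b-3p: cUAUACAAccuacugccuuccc
let-7f-2-3p: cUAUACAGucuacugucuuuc
let-7d-3p: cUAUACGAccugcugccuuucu
let-7e-3p: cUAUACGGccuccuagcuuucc
let-7g-3p: cUGUACAGgccacugccuugc
let-7i-3p: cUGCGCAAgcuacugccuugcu
The sequence of let-7a-1-3p equalled that of let-7c-2-3p over all 22 bases, and both shared the seed UAUACAA with let-7f-1-3p and let-7b-3p. The other strands each had a seed of their own among the members. All 9 sequences began with C, and their GC content ran from 36.4% in let-7a-1-3p and its twin and 38.1% in both let-7f strands to 59.1% in let-7i-3p and 61.9% in let-7g-3p. The nearest distinct pair was let-7a-1-3p and let-7f-2-3p, which differed by the single substitution A8G over the 21 bases compared, positions counted from 1 at the 5′ end. That base is the last of the seed. The guides let-7a-5p to let-7i-5p and miR-98-5p, by contrast, all shared the seed GAGGUAG.

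The hairpins show how different precursors give the same passenger. Both mature arms are in capitals, the 5p arm first.
let-7a-1, chr17:16320133-16320226, plus strand: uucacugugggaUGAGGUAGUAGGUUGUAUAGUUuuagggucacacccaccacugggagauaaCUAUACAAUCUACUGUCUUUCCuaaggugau
let-7c-2, chr7:118683623-118683717, plus strand: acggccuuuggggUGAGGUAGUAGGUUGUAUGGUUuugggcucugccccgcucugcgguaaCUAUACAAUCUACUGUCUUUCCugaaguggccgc
let-7f-2, chrX:24460045-24460127, plus strand: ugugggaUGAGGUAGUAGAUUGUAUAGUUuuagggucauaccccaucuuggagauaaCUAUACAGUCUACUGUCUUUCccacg
The loops and flanks of let-7a-1 and let-7c-2 differ, but reads of the mature arm alone do not reach them. In the table, let-7a-1-3p held the same value as let-7c-2-3p in each of the 6 libraries. They cannot be told apart and are treated below as 1 shared row, which leaves 9 distinct rows. Among rows of at least 10 RPM (reads per 1000000 reads assigned to miRNAs), 1 other pair was identical in this way, miR-466b-2-3p with miR-466b-4-3p.

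Messenger RNA was not measured, so the knockout itself cannot be checked here, and the tissue label was not matched by its markers. The hepatocyte miRNA miR-122-5p took 40.2% to 46.4% of reads in the knockout libraries and 32.7% to 36.6% in the wild type libraries, which did not overlap (two-sided exact permutation test, p = 0.1, the lowest that 3 against 3 allows). The germ cell rows miR-34b-5p, miR-34c-5p and miR-449a-5p summed to 24.0 to 28.9 RPM in the knockout and 31.9 to 49.0 RPM in the wild type. The gonadal list of miR-202-5p and miR-202-3p summed to 0.71 to 2.22 RPM in the knockout and 0.90 to 1.58 RPM in the wild type, with miR-202-3p at 0. The 8 rows of the X-linked testis cluster summed to 0 to 0.24 RPM in the knockout and 0.11 to 2.52 RPM in the wild type, and 3 of 8 of them, miR-465-5p, miR-880-3p and miR-883-3p, were at 0. Recovered library totals were 8300536 to 9809055 reads in the knockout and 9128924 to 10042673 reads in the wild type. The part of these marker differences in the results below was not tested, other than for miR-122-5p where stated. In such bulk tissue fewer cells of a type and less RNA per cell cannot be told apart.

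Mean levels over all 6 libraries ran from 714 RPM for the shared row to 3.96 RPM for let-7i-3p, with let-7g-3p at the limit of detection. The mature strands are 21 or 22 bases long, so RPM can be compared between them, although the efficiency of ligation to each sequence was not measured. The shared row was highest, at 659, 624 and 678 RPM in knockout libraries 1 to 3 and 740, 765 and 821 RPM in wild type libraries 1 to 3. let-7d-3p followed, at 211, 303 and 268 RPM in the knockout and 277, 247 and 243 RPM in the wild type. These leading rows were separated from each other and from all the rest in every library.

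let-7f-1-3p had 18.6, 24.1 and 20.0 RPM in the knockout and 23.80, 23.88 and 25.96 RPM in the wild type. let-7b-3p had 14.3, 21.7 and 21.7 RPM in the knockout and 22.8, 20.1 and 23.6 RPM in the wild type. The ranges of these neighbours overlapped, with let-7f-1-3p above let-7b-3p in 5 of 6 libraries, and that of let-7b-3p also overlapped let-7f-2-3p. let-7f-2-3p had 9.40, 10.7 and 7.79 RPM in the knockout and 17.1, 21.3 and 16.9 RPM in the wild type. let-7c-1-3p had 4.58, 4.18 and 4.67 RPM in the knockout and 9.46, 7.23 and 6.01 RPM in the wild type. In both of these strands every knockout library lay below every wild type library. Within each library let-7f-2-3p exceeded let-7c-1-3p, in 6 of 6, although their ranges over all libraries overlapped.

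At the low end, let-7e-3p ranged from 3.25 to 4.34 RPM in the knockout and from 3.59 to 5.68 RPM in the wild type. let-7i-3p ranged from 3.37 to 4.69 RPM in the knockout and from 2.43 to 4.78 RPM in the wild type. These strands overlapped each other and their groups overlapped, with let-7e-3p above let-7i-3p in 4 of 6 libraries. let-7g-3p was close to absent, with 3, 1 and 4 reads in the knockout and 2, 2 and 2 reads in the wild type. Only 1 of those libraries exceeded 3 reads, so no fold or log2 change is given for it.

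**Figure D1:**
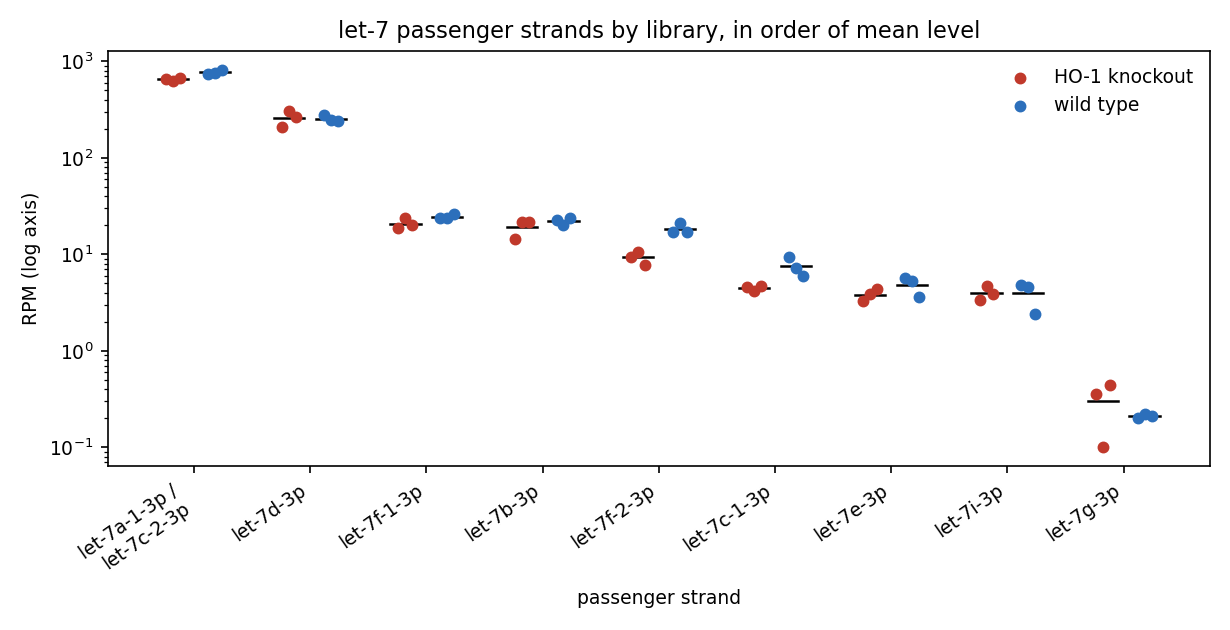
RPM (log axis) of each of the 9 distinct let-7 passenger rows in the 3 HO-1 knockout libraries (red) and 3 wild type libraries (blue), with black bars at the group means, ordered by mean level. The shared row lies at 624 to 821 RPM, let-7g-3p at or below 0.44 RPM, and the groups separate in that shared row, let-7f-2-3p and let-7c-1-3p.

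Neighbouring hairpins did not yield equal passenger levels. In RefSeq the hairpins of let-7a-1, let-7f-1 and let-7d lie within 10 kb of each other on chromosome 17. There the shared row exceeded let-7f-1-3p 31.5-fold in mean level, between 25.9-fold and 35.5-fold in single libraries, and let-7d-3p exceeded let-7f-1-3p 11.4-fold, between 9.35-fold and 13.4-fold. The hairpins of let-7c-2 and let-7b are neighbours on chromosome 7, and the shared row exceeded let-7b-3p 34.5-fold. How much of the shared row each of its 2 hairpins gave cannot be told apart, so these ratios compare the shared row, not let-7a-1 or let-7c-2 alone. The other let-7a hairpin with its own row, let-7a-2, gave 5 passenger reads over all 6 libraries, against 39879 for the shared row, and let-7c-1-3p had 339 reads. Of the other hairpins, let-7e lies beside miR-99b and miR-125a on chromosome 1, let-7g within the span of Wdr82 on chromosome 8, and let-7i on chromosome 7 with no other miRNA gene within 10 kb.

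The spread between libraries of 1 genotype was set against the spread that read counting alone gives. The coefficient of variation of the shared row was 4.16% in the knockout and 5.37% in the wild type, where read counting alone would give 1.30% and 1.16%. For let-7d-3p it was 17.9% in the knockout and 7.24% in the wild type, beside 2.05% and 2.02% from counting. The wide spread of let-7d-3p in the knockout came with library 1, the lowest of all 6, and library 2, the highest. Rarer strands were mixed. For let-7f-1-3p the spread was 13.7% in the knockout and 4.99% in the wild type, beside 7.25% and 6.53% from counting. For let-7c-1-3p it was 5.83% in the knockout and 23.1% in the wild type, beside 15.7% and 11.7% from counting. For let-7f-2-3p it was 15.7% in the knockout and 13.3% in the wild type, beside 10.9% and 7.55% from counting. Each spread rests on 3 libraries and is imprecise, and its difference from counting was not tested. Counting error covers sampling of reads only, and amplification copies cannot be told from separate molecules here.

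Relative to their guides, the passengers also differed widely by locus. For each guide, the passenger share is the 3p reads as a percentage of 3p plus 5p reads. let-7d had the highest share, 6.74% ± 1.30 in the knockout and 7.36% ± 0.57 in the wild type (SD, n = 3). The pooled let-7a and let-7c hairpins, whose guides let-7a-5p and let-7c-5p summed to 39339 RPM in the knockout and 43154 RPM in the wild type, had 1.65% ± 0.10 and 1.78% ± 0.12. let-7e followed with 1.17% ± 0.19 in the knockout and 1.08% ± 0.16 in the wild type, and let-7b with 0.803% ± 0.138 and 0.857% ± 0.052. These 4 shares overlapped between genotypes.

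The most abundant guide had one of the lowest shares. let-7f-5p averaged 59331 ± 1175 RPM in the knockout and 60104 ± 2198 RPM in the wild type, yet its passengers let-7f-1-3p and let-7f-2-3p together made up 0.0508% ± 0.0056 in the knockout and 0.0716% ± 0.0060 in the wild type. For let-7i the share was 0.0592% ± 0.0121 in the knockout and 0.0543% ± 0.0179 in the wild type. let-7g had 8 passenger reads beside 615908 guide reads in the knockout and 6 beside 770542 in the wild type. Of these 7 shares, that of let-7f was the one whose genotypes did not overlap, with values of 0.0476%, 0.0572% and 0.0475% in the knockout and 0.0654%, 0.0774% and 0.0719% in the wild type. In a two-sided exact permutation test its p was 0.1, the lowest it allows, and 0.7 after Benjamini-Hochberg adjustment over the 7. Over all 222 pairs of a 3p and a 5p arm, 15.3% had an arm ratio that was lower in the knockout without overlap, so 1 of 7 is near the background.

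**Figure D2:**
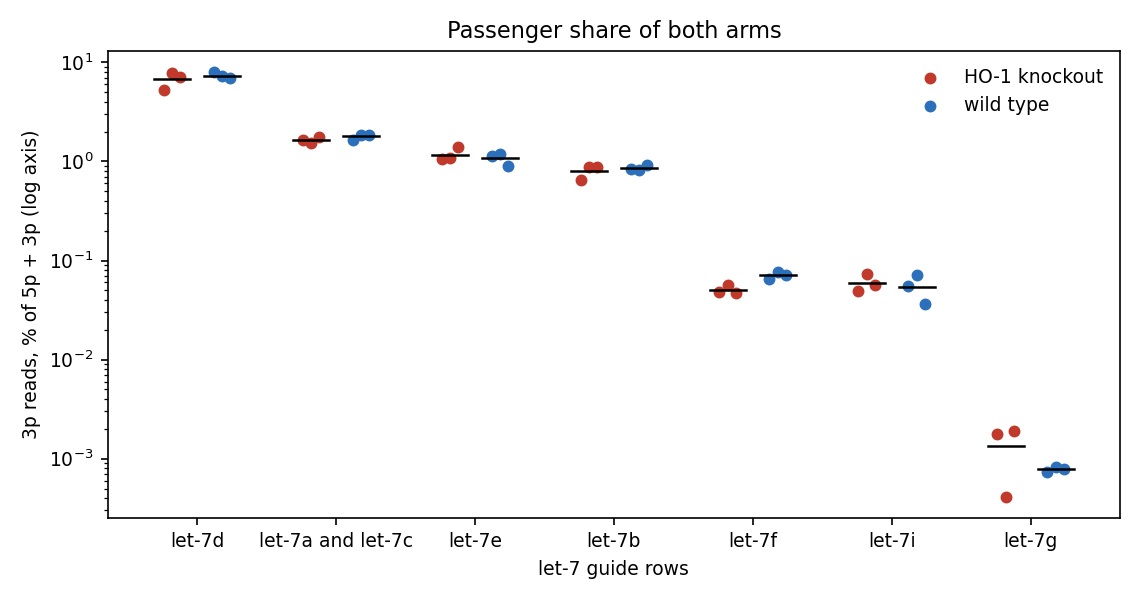
Passenger reads as a percentage of 5p plus 3p reads (log axis) for each let-7 guide, in HO-1 knockout (red) and wild type (blue) libraries, with black bars at the group means. let-7d lies highest at 5.30% to 7.99%, let-7g lowest at or below 0.00189%, and let-7f is the guide whose groups separate.

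Between genotypes, 1 of the 9 distinct passenger rows changed. let-7f-2-3p fell in the knockout, to 9.30 ± 1.46 RPM against 18.4 ± 2.5 RPM in the wild type (SD, n = 3). This was a 1.98-fold lower level and a log2 difference of -0.92 with an SE of 0.21 (adjusted p = 0.047 in limma over 570 miRNAs). Of the 570, 6.32% passed the same test in either direction, 5.61% as lower in the knockout and 0.702% as higher, so 1 of 9 rows is near the background. The recovered reads behind it were 78, 105 and 70 in the knockout and 172, 194 and 160 in the wild type. The highest exact 95% Poisson bound in the knockout was 12.96 RPM and the lowest in the wild type was 14.4 RPM, so the counting intervals of the groups did not meet. These intervals cover read sampling only, not the spread between libraries, so they are no test of genotype. In the authors' deposited table its log2 fold change was -0.99 and its p-value 0.0032, by a test that is not stated.

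The call of let-7f-2-3p sat at the edge of the threshold. It passed in 5 of 17 fits (RPM as deposited, a filter of 10 RPM, a pseudocount of 0.1 and both count tests), with log2 changes between -1.01 and -0.70 in all of them. In the fit with the 10 RPM filter, 50 of 218 miRNAs passed. let-7f-2-3p cleared that filter through its wild type mean of 18.4 RPM, with a knockout mean of 9.30 RPM, so that pass is no separate result. let-7f-2-3p passed in edgeR's quasi-likelihood test on recovered reads (adjusted p = 0.031) and in DESeq2 (adjusted p = 0.021), where 10.7% and 12.6% of all 570 miRNAs passed. DESeq2 gave some miRNAs, let-7g-3p among them, no adjusted p, so its share of those with one is above 12.6%. In limma let-7f-2-3p missed with TMM scaling (log2 change -0.72, adjusted p = 0.074) and relative to the reads other than miR-122-5p (log2 change -0.76, adjusted p = 0.067). It also missed in limma without any single library, with adjusted p between 0.065 without wild type library 3 and 0.19 without knockout library 3.

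**Figure D3:**
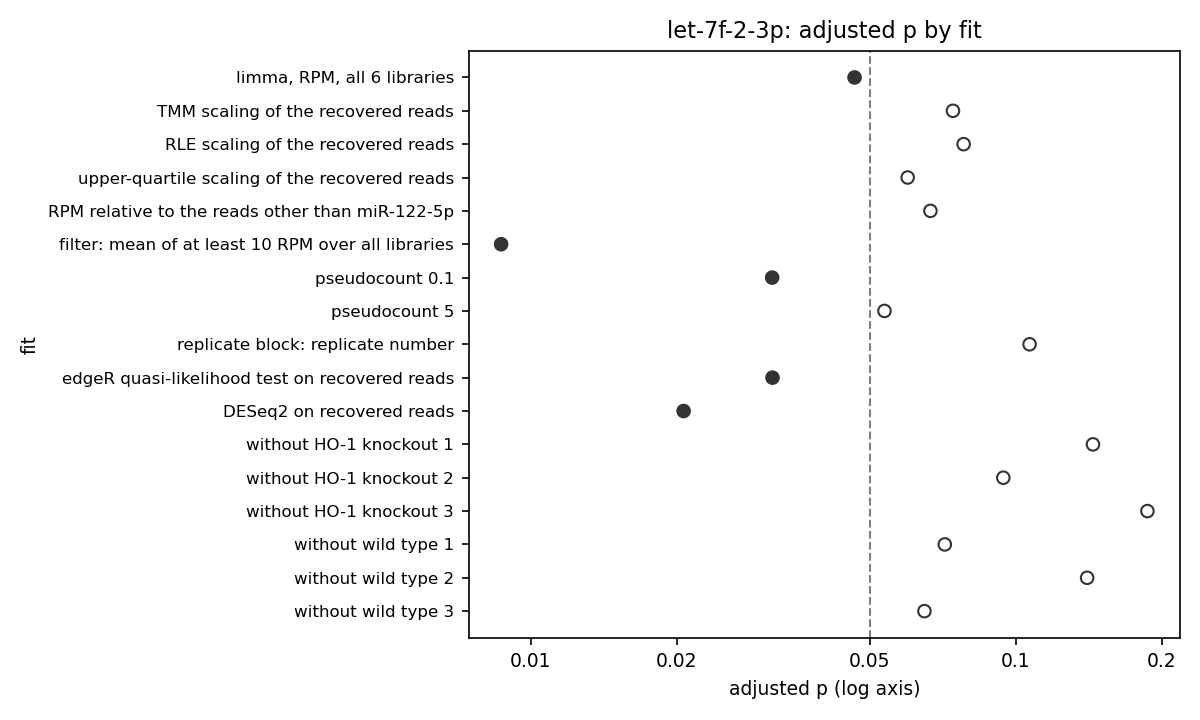
Adjusted p of the genotype change of let-7f-2-3p (log axis) in each of 17 fits. Each fit is limma on log2(RPM + 1) with 1 setting changed, other than those named edgeR and DESeq2. Filled points lie below the dashed threshold of 0.05 and open points above it: 5 are filled, and every fit without 1 library is open.

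The other 8 distinct rows did not pass. The shared row averaged 654 ± 27 RPM in the knockout and 775 ± 42 RPM in the wild type, a log2 difference of -0.25 with an SE of 0.10 (adjusted p = 0.20 in limma). let-7c-1-3p averaged 4.48 ± 0.26 RPM in the knockout and 7.57 ± 1.75 RPM in the wild type, a log2 difference of -0.63 with an SE of 0.25 (adjusted p = 0.21 in limma). In both, as in let-7f-2-3p, the groups did not overlap and the knockout was lower, which held for 21.6% of all tested miRNAs and 41.7% of those of at least 10 RPM. let-7d-3p averaged 261 ± 47 RPM in the knockout and 256 ± 18 RPM in the wild type, a log2 difference of 0.02 with an SE of 0.15 (adjusted p = 0.96 in limma). The log2 changes of let-7b-3p, let-7e-3p, let-7f-1-3p and let-7i-3p lay between -0.27 and 0.04, with limma adjusted p between 0.49 and 0.94.

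Library scaling moved these values. On RPM, 6 of 9 rows had a log2 change below 0 and 3 above (let-7g-3p, at its limit of detection, among the 3), with a median of -0.23, beside a median of -0.29 for the 218 miRNAs of at least 10 RPM and -0.12 for all 570. Of all 570, 69.5% lay below 0, and of those of at least 10 RPM 75.2%. TMM scaling moved the median of those 218 by 0.21 and RLE by 0.23. With TMM, the shared row had a log2 difference of -0.03, let-7f-1-3p -0.02, let-7b-3p -0.01 and let-7d-3p 0.23, and the sign of let-7b-3p turned with RLE, to 0.01. let-7f-2-3p and let-7c-1-3p stayed furthest below 0 among the rows, at -0.72 and -0.44 with TMM.

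**Figure D4:**
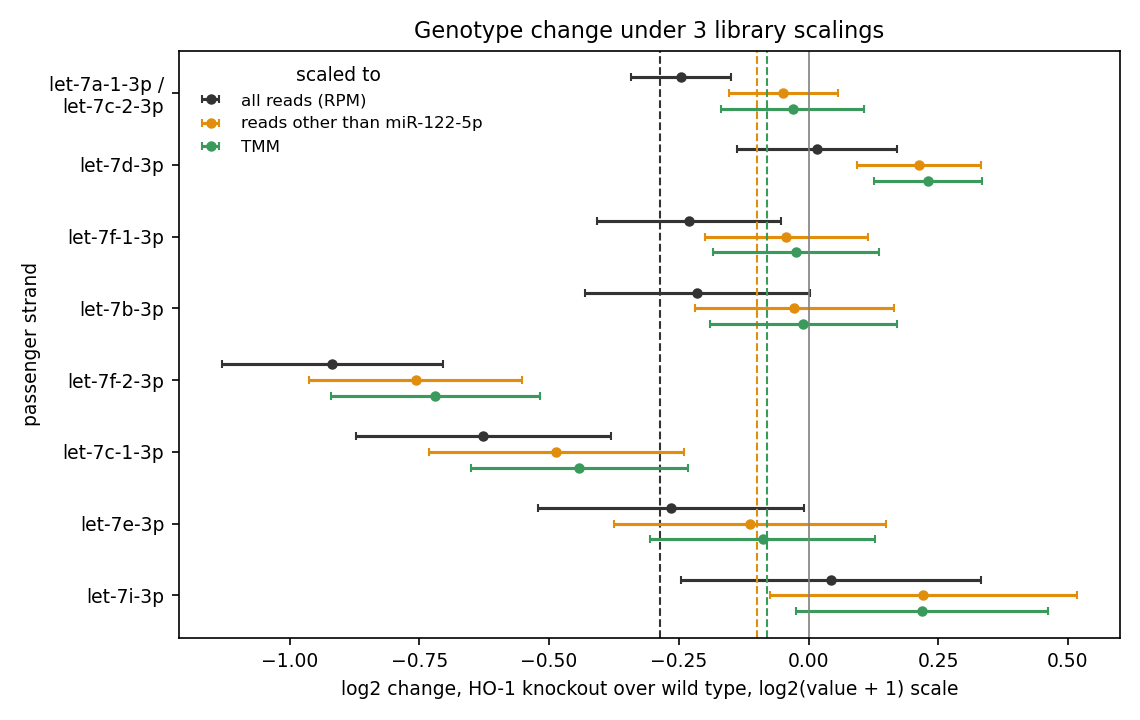
Log2 change of 8 passenger rows, HO-1 knockout over wild type, on the log2(value + 1) scale, with bars for the standard error, under scaling to all reads (black), to reads other than miR-122-5p (orange) and by TMM (green). let-7g-3p, at its limit of detection, is not drawn. Dashed lines mark the median of miRNAs of at least 10 RPM under the scaling of the same colour, -0.29, -0.10 and -0.08, and let-7f-2-3p and let-7c-1-3p lie below all 3.

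Summed with the shared row counted once, the passengers came to 924, 997 and 1009 RPM in the knockout and 1100, 1095 and 1143 RPM in the wild type. The sum was lower in each knockout library than in any wild type library (two-sided exact permutation test, p = 0.1, the lowest it allows). Most of it is the shared row, already separate in RPM like 41.7% of miRNAs of at least 10 RPM, so this is no separate result. The 8 summed let-7 guides were also lower in each knockout library, at 134357 ± 2962 RPM against 143635 ± 5822 RPM in the wild type (exact permutation p = 0.1). The share of miR-122-5p differed in the other direction, as given above. Per 1000000 reads other than miR-122-5p, the passenger sum was 1727 ± 61 in the knockout and 1718 ± 83 in the wild type (SD, n = 3, exact permutation p = 0.9). The lower passenger sum in the knockout was therefore not seen on this scale. Whether the reads of miR-122-5p cause the difference on RPM was not tested. As a percentage of all let-7 reads, guides included, passengers made up 0.721% ± 0.028 in the knockout and 0.769% ± 0.036 in the wild type (exact permutation p = 0.2).

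Within the summed passengers, which are free of the library total, the shared row held 67.0% ± 4.4 in the knockout and 69.7% ± 2.3 in the wild type, and let-7d-3p 26.6% ± 3.8 and 23.0% ± 2.0. let-7f-2-3p held 0.955% ± 0.160 in the knockout and 1.66% ± 0.25 in the wild type, and let-7c-1-3p 0.459% ± 0.038 and 0.682% ± 0.168 (SD, n = 3). In these last strands the groups did not overlap and the knockout was lower (two-sided exact permutation test, p = 0.1 each, the lowest it allows, and 0.45 adjusted over 9 rows). Both were already separate in RPM, as were 21.6% of all tested miRNAs with the knockout lower. Their shares are therefore no separate result. The shares of the other 7 rows overlapped.

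The arm balance was then tested as the log2 ratio of 3p to 5p arm in limma over 222 arm pairs. let-7f-2-3p fell relative to let-7f-5p, with a log2 ratio of -12.5 in the knockout and -11.6 in the wild type, a change of -0.90 with an SE of 0.18 (adjusted p = 0.030 in limma). Of the 222 pairs, 5.86% passed in either direction, 2.25% with the 3p arm lower in the knockout and 3.6% with it higher, and let-7f-2-3p was the only let-7 passenger among them. let-7f-5p comes from both let-7f hairpins, so this ratio is not that of 1 hairpin. The log2 change of let-7f-5p itself was -0.02 on RPM. The ratio therefore largely repeats the level change of let-7f-2-3p and is no separate result. For let-7f-1-3p against the same guide the change was -0.21 with an SE of 0.16 (adjusted p = 0.48 in limma), and for let-7c-1-3p against let-7c-5p it was -0.50 with an SE of 0.18 (adjusted p = 0.12 in limma). The groups of both let-7f-2-3p and let-7c-1-3p were separate in this ratio, with the knockout lower, as in 15.3% of pairs. With a pseudocount of 0.1 the arm ratio of let-7f-2-3p missed the threshold (adjusted p = 0.12 in limma). Leaving out wild type 3 kept it (adjusted p = 0.045), and leaving out any of the other 5 libraries lost it (adjusted p between 0.058 and 0.11).

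let-7f-2 can be set against its closest relatives by sequence and by locus, in ratios chosen after its values were seen. Against the shared row, from which it differs by A8G, it amounted to 1.43%, 1.71% and 1.15% in knockout libraries 1 to 3 and 2.32%, 2.78% and 2.06% in wild type libraries 1 to 3. Against let-7f-1-3p it amounted to 44.7% ± 5.9 in the knockout and 75.3% ± 12.3 in the wild type. The groups did not overlap in either ratio. let-7f-2-3p was already separate in level, so these ratios are descriptions and no further result. The sources used here give no mismatch rules for assigning reads. How many reads crossed between let-7f-2-3p and the 51.6-fold more abundant shared row was not tested.

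The hairpins of let-7f-2 and miR-98, a let-7 relative, are neighbours on the X chromosome inside the span of Huwe1, a ubiquitin ligase gene. miR-98-5p had 327 ± 17 RPM in the knockout and 265 ± 42 RPM in the wild type, a log2 difference of 0.31 with an SE of 0.14 (adjusted p = 0.26 in limma), a difference that passed under the scalings and count tests named below. let-7f-2-3p amounted to 2.76%, 3.23% and 2.53% of miR-98-5p in the knockout and 5.48%, 8.58% and 7.18% in the wild type, without overlap. This ratio reuses the values of let-7f-2-3p and is likewise a description. miR-98-3p, the passenger of that neighbour, had 2.95 ± 0.78 RPM in the knockout and 3.65 ± 0.64 RPM in the wild type, and its groups overlapped (limma adjusted p = 0.61). Its log2 arm ratio to miR-98-5p also changed downward in the knockout, by -0.56 with an SE of 0.24 (adjusted p = 0.20 in limma). The groups overlapped in that ratio too.

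**Figure D5:**
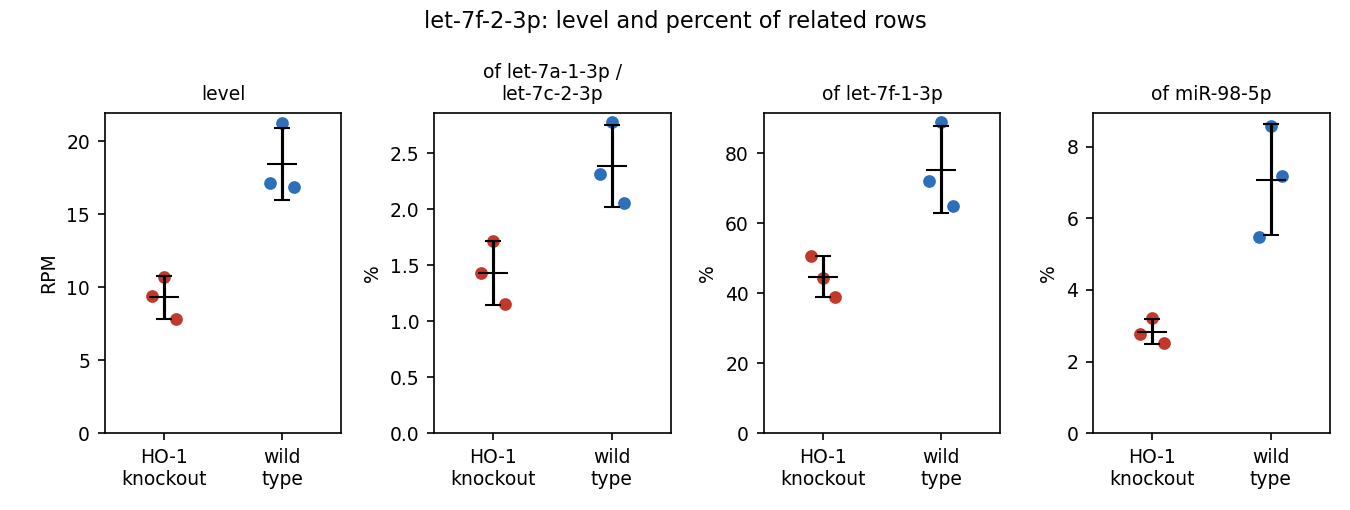
Level of let-7f-2-3p in RPM, and let-7f-2-3p as a percentage of the shared row of let-7a-1-3p with let-7c-2-3p, of let-7f-1-3p and of miR-98-5p, in HO-1 knockout (red) and wild type (blue) libraries, with black bars for the mean and SD. In all 4 panels each knockout library lies below each wild type library. The panels share the values of let-7f-2-3p, so they are not separate results.

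None of the 9 guides, let-7a-5p to let-7i-5p and miR-98-5p, passed in limma on RPM (adjusted p over all miRNAs). On this scale 7 had a log2 change below 0 and 2 above, with a median of -0.12. This direction turned with scaling: the median was 0.10 with TMM, 0.12 with RLE and 0.08 relative to the reads other than miR-122-5p. miR-98-5p passed as higher in the knockout in 6 fits: limma scaled by upper quartile, RLE or TMM or relative to the other reads, edgeR, and DESeq2. let-7d-5p passed as higher in DESeq2 and relative to the other reads. On RPM, at an unadjusted limma p under 0.05, 2 of them were lower in the knockout, let-7e-5p and let-7g-5p. Of all 570 miRNAs 19.3% had such a p in either direction, so this count is near the background. let-7e-5p had 324 ± 27 RPM in the knockout and 439 ± 48 RPM in the wild type (limma adjusted p = 0.091). let-7g-5p had 22624 ± 1964 RPM in the knockout and 26883 ± 554 RPM in the wild type (limma adjusted p = 0.16). let-7d-5p had 3615 ± 132 RPM in the knockout and 3217 ± 59 RPM in the wild type (limma adjusted p = 0.29). It was higher in each knockout library than in any wild type library, as were 4.39% of tested miRNAs. The groups of let-7d-3p overlapped, and the log2 arm ratio of let-7d changed by -0.15 (adjusted p = 0.66 in limma). In 3 guides, let-7a-5p, let-7e-5p and let-7g-5p, the groups separated with the knockout lower, as in 41.7% of miRNAs of at least 10 RPM.

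Of 12 arms from the miR-98, miR-99, miR-100 and miR-125 hairpins that are known to share transcripts with let-7 hairpins, 4 fell in the knockout and 8 did not pass. The 4 were miR-99a-3p, miR-100-5p, miR-125b-5p and miR-125b-2-3p. The same 4 passed with TMM and RLE scaling, in edgeR and in DESeq2, against miR-100-5p and miR-125b-5p alone without knockout library 1 or with the replicate block, and 0 in limma without knockout library 3 (5 at an unadjusted p under 0.05). Over the 12 the median log2 difference was -0.56 on RPM, beside -0.12 for all miRNAs, of which 5.61% passed as lower, and -0.29 for those of at least 10 RPM, as 7 of the 12 were. With TMM scaling it was -0.35, beside -0.04 for all miRNAs and -0.08 for those of at least 10 RPM, and with RLE -0.33. On RPM, the log2 difference was -0.05 for miR-99b-5p, -0.09 for miR-125a-5p and 0.22 for miR-125a-3p, but -0.88 for miR-125b-1-3p. The list was chosen with earlier results of these data known, and arms of the same hairpin are not independent. Its count and median are therefore descriptions, not a test of the list. The hairpin of miR-99a neighbours let-7c-1 on chromosome 11. miR-99a-3p fell to 2.73 ± 0.71 RPM in the knockout against 9.10 ± 1.35 RPM in the wild type (log2 difference -1.45 with an SE of 0.26, adjusted p = 0.019 in limma), and miR-99a-5p had 14826 ± 1124 RPM in the knockout and 20726 ± 3058 RPM in the wild type (limma adjusted p = 0.062).

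Over the 6 libraries, the miRNAs of at least 10 RPM whose log2(RPM + 1) followed let-7f-2-3p most closely were miR-143-5p (Pearson r = 0.978), miR-126a-3p (r = 0.977) and miR-126a-5p (r = 0.970). These are descriptions over 6 points that share library totals and genotype. They were chosen for following let-7f-2-3p, so their genotype difference is part of that choice and is given without a test. miR-143-5p had 26.3 ± 4.5 RPM in the knockout and 59.0 ± 8.2 RPM in the wild type (SD, n = 3). miR-126a-3p had 19302 ± 1170 RPM in the knockout and 25300 ± 817 RPM in the wild type, and miR-126a-5p 573 ± 53 RPM in the knockout and 983 ± 117 RPM in the wild type.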

How the data were processed

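Small RNA libraries from 1 μg of total RNA were read from 1 end over 50 bp, per the labels' protocols. The authors deposited RPM for 764 entries, rounded to 2 decimals, with their mean RPM, log2 fold change and p-value per entry, per the file headers. The submitters' processing notes name FastQC, BWA, edgeR and the build rn6, without role or version. The sources used here do not give trimming, mismatch rules or how multiply matching reads were assigned. All 6 library columns matched a sample by name.

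The 570 entries above 0 were fitted as log2(RPM + 1) in limma 3.58.1 with its intensity trend and genotype as the only factor, with Benjamini-Hochberg adjustment and a threshold of 0.05. This scale understates changes of rare entries. Arm ratios were fitted without the trend. A numbered 3p arm without a 5p row of its own took that of the unnumbered name. Between 97.8% and 98.9% of values above 0 were whole reads to within 0.0051 RPM, so reads were recovered (wild type library 1, whose step is close to 0.1 RPM, rests on its higher values) and tested in edgeR 4.0.16, calling 61 miRNAs, and DESeq2 1.42.0. With 3 reads as the limit of detection, 1 library resolves 0.299 to 0.361 RPM. Fits were tested on simulated data. The named miRNAs were the members, their guides, miR-98, miR-122-5p and the 3 rows most correlated with the member of smallest p. Cluster partners and markers came from fixed lists. Members and lists were chosen with earlier results of these data known. Alternatives covered scaling, filter, pseudocount, replicate block, test and left-out libraries.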

Additional observations from a re-analysis of the deposited data

How the results depend on the processing

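Over all miRNAs, 36 were called (4 higher and 32 lower in the knockout), 20 higher and 29 lower with TMM scaling, 22 with the replicate block, 61 in edgeR's quasi-likelihood test, 72 in DESeq2 and 5 to 26 with 1 library left out. Arm pairs called numbered 13, against 0 in limma with a pseudocount of 0.1 (35 at an unadjusted p under 0.05), 26 with a pseudocount of 5, 21 with both arms at 10 RPM or more, and 0 to 15 with 1 library left out (43 to 53 at an unadjusted p under 0.05). An intensity trend in the arm fit, added after seeing the data, called 16 and kept let-7f-2-3p (limma adjusted p = 0.0079). The summed passengers differed by -136 RPM (knockout minus wild type), by -152 to -110 RPM with 1 library left out, and by 9.03 per 1000000 reads other than miR-122-5p. The replicate block left that sum's difference as it was (exact sign-flip p = 0.25, the smallest possible) and took the adjusted p of let-7f-2-3p to 0.11 in limma. Same-numbered libraries correlated in their deviations with r = 0.033, 0.176 and 0.204, and not every library correlated best with its own number, so the number was not taken as a pairing. let-7f-2-3p was also lost with RLE and upper-quartile scaling (limma adjusted p = 0.078 and 0.060) and a pseudocount of 5 (0.054). Uncalled values near 0 changed sign in some fits. The log2 change of let-7b-3p became 0.0105 with RLE and 0.0166 in DESeq2. With 1 library left out, log2 changes ranged from -0.10 to 0.16 for let-7d-3p and from -0.20 to 0.18 for let-7i-3p. Arm ratio changes then ranged from -0.1689 to 0.0463 for let-7b-3p, from -0.2769 to 0.0216 for let-7d-3p and from -0.0583 to 0.3334 for let-7i-3p. Differences in the share of the summed passengers ranged from -0.139 to 0.173 percentage points for let-7b-3p, from -0.209 to 0.00554 for let-7f-1-3p and from -0.0203 to 0.0906 for let-7i-3p. The cause of these turns was not tested. Strands averaging under 10 RPM rest on 23 to 95 reads per library, other than let-7g-3p with 1 to 4.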

Other observations

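The authors' deposited table gives let-7a-1-3p the same means and log2 fold change as let-7c-2-3p, but p-values of 0.82555 for let-7a-1-3p and 0.82518 for its twin.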
